A study of Mus musculus with 4 samples.

Results

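NADPH oxidases are membrane enzymes that pass electrons from NADPH to oxygen and so release superoxide or hydrogen peroxide. The measurements below cover 7 genes that encode subunits of the phagocyte and vascular forms of the enzyme: Cybb, Cyba, Ncf1, Ncf4, Rac2, Nox1 and Nox4. The members were taken as every probe set that the platform's annotation pairs with exactly 1 of these symbols, which gave 12 of the 34945 probe sets with a single symbol and covered 6 of the 7 genes. Cybb and Ncf1 each had 3 probe sets, Rac2 and Nox4 each had 2, and Cyba and Ncf4 each had 1. Nox1 was not analysed here.

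The study set whole aortas from mice without Smad4 in their smooth muscle cells (Smad4-KO) beside those of littermates with an intact gene (WT), all taken at 6 weeks of age, and names no other treatment. Smad4 is the partner that receptor-activated Smad proteins share in TGF-beta and BMP signalling. There were 2 Affymetrix arrays per genotype, hybridised with 400 ng of RNA from tubes that held 3 to 5 vessels, so a value is that of a pool and not of 1 mouse. Which transgene removed Smad4, and which part of the gene was deleted, is not given in the sources used here. Cells other than smooth muscle are not the labelled target.

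In phagocytes the catalytic subunit gp91phox (Cybb) and its membrane partner p22phox (Cyba) form flavocytochrome b558, which stays silent until cytosolic proteins, among them p47phox (Ncf1) and p40phox (Ncf4), and the GTPase Rac2 join it. This burst of superoxide serves the killing of microbes. In the vessel wall Nox4, which also needs p22phox, is the main form of smooth muscle and makes mostly hydrogen peroxide without the cytosolic subunits, while Nox1 works in smooth muscle with organizer and activator subunits of its own.

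Values are probe set signals on a linear scale. A difference is the log2 signal in Smad4-KO minus that in WT, a value after ± is its standard error from limma, and each group had 2 arrays. A gene passed when its Benjamini-Hochberg adjusted p over all 13645 genes tested lay under 0.05. In this test, 4 of the 6 member genes rose and 0 fell, against 4.92% of all genes tested that rose and 1.39% that fell. Cybb, Ncf1, Ncf4 and Rac2 rose by between 5.31-fold and 12.4-fold. Cyba read 2.99-fold higher in Smad4-KO and Nox4 read 3.93-fold lower, and neither passed. The median difference of the 6 genes was 2.79, beside -0.01 over all genes tested. In each of the 12 probe sets the arrays of the genotypes did not overlap, which was the case for 42.2% of all probe sets tested. The members were chosen with results of these data known, so their count is a description.

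The bases just before the start of 4 members are shown to give the sequence context of Cybb and Ncf1, which rose, and of Cyba and Nox4, which read higher and lower in Smad4-KO and did not pass. They come from RefSeq (GRCm38.p6) and run 5′ to 3′ on the strand of the gene, over the 120 bases before its listed start. Capitals mark AGGAA on either strand, a string that contains GGAA, the core that Ets-family factors such as PU.1 recognise. GGAA by itself was not searched for, and it can be read outside the capitals, on either strand, in each window shown.
Cybb (chrX:9469325-9469444, minus strand): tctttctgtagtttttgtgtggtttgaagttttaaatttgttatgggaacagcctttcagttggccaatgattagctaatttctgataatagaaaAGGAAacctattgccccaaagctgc
Ncf1 (chr5:134229626-134229745, minus strand): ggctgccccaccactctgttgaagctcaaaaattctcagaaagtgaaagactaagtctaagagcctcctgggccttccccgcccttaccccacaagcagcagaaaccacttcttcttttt
Cyba (chr8:122432941-122433060, minus strand): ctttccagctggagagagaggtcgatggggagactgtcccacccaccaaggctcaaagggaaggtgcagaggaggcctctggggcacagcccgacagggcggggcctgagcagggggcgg
Nox4 (chr7:87246529-87246648, plus strand): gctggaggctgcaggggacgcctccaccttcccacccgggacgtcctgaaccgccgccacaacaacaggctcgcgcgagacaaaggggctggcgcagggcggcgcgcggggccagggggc
The promoter table held 5 of the 7 members, with Ncf4 and Rac2 named only. Of the windows shown, the Cybb window alone held AGGAA, with its first base at -25, and 35.2% of all 32851 promoters held it in the same 120 bases. The Cybb window also held CCAAT, with its first base at -56, as did 21.3% of promoters in this stretch. In the whole windows, from 250 bases before to 50 bases after the start, Nox4 held AGGAA at -218 and, on the other strand, CAGAC, a short form of the Smad element, at -141. CAGAC was in 49.6% of all promoters and AGGAA in 66.7%. GAGGAA, which contains AGGAA, was in the Cybb window at 10 on the other strand, the second AGGAA of that window, and in 28.3% of promoters. GTCTAGAC (in 0.2% of promoters) and the CArG box (in 1.6%) had no match in the windows of these 4 genes. These matches are descriptions of the letters only.

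The arrays differed in ways that genotype does not account for, and these are given before the members. For Dap, a spiked-in transcript that monitors labelling, the 3′ probe set read 10.02 and 14.06 times the 5′ probe set on WT replicate 1 and Smad4-KO replicate 2, but 2.956 and 3.62 times on the other arrays. Xist, which is transcribed from the inactive X chromosome, read 15192 and 6223 on both replicate 1 arrays but 90.0 and 135 on both replicate 2 arrays, and Cybb lies on the X chromosome. Each split has an array of each genotype on both sides, so the differences within the pairs of arrays are given for the members. Smad4 itself, by its brightest probe set, read 4394 and 3819 in WT against 2676 and 3580 in Smad4-KO and did not pass (-0.40 ± 0.32, adjusted p = 0.626 in limma). It checks the labels only if that probe set lies in the deleted part.

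**Figure D1:**
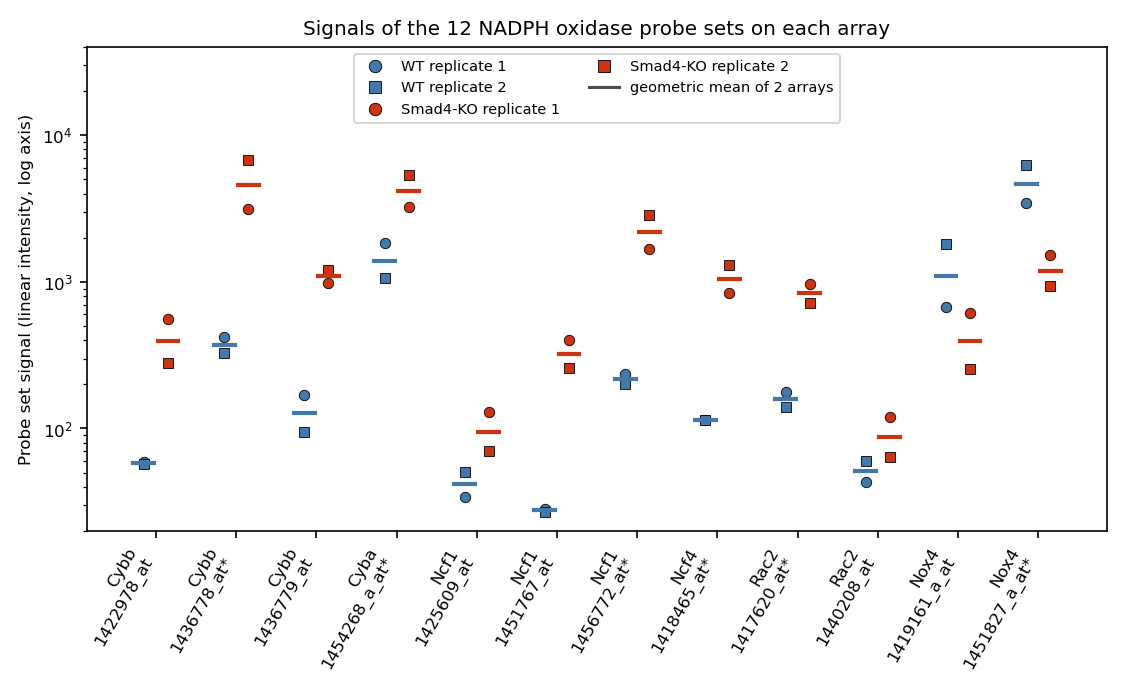
Signal of each of the 12 probe sets on the 4 arrays (log axis), with circles for replicate 1, squares for replicate 2, bars for the geometric mean of 2 arrays and a star at the brightest probe set of each gene. All probe sets of Cybb, Cyba, Ncf1, Ncf4 and Rac2 lie higher in Smad4-KO and both of Nox4 lie lower.

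Cybb encodes the subunit that carries the flavin and the haems and moves the electrons. Its brightest probe set, 1436778_at, read 418 and 329 in WT against 3120 and 6801 in Smad4-KO. High signal was seen on both Smad4-KO arrays, the lower of them 7.47 times the higher WT array, although they differed from each other by 2.18-fold. The rise was 12.4-fold (3.64 ± 0.46, 95% interval 2.49 to 4.78, adjusted p = 0.0182 in limma), and 219 of the 13645 genes tested had a higher difference. Within the pairs of arrays the difference lay between 2.90 and 4.37. The pair with high Xist gave 2.90 and the pair with low Xist 4.37, while the pairs that match on the Dap ratio gave 4.03 (high) and 3.25 (low). The other Cybb probe sets showed the same direction. Probe set 1436779_at read 169 and 94.8 in WT against 979 and 1214 in Smad4-KO, an 8.62-fold difference. Probe set 1422978_at was dim in WT, at 59.4 and 57.2, and read 559 and 280 in Smad4-KO, so with signals under 64 raised to 64 it was at least 6.19-fold higher. Such a fold bounds the measured ratio from below and leaves the spread between arrays out of account.

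Cyba encodes p22phox, the partner that both gp91phox and Nox4 need. Its single probe set, 1454268_a_at, read 1848 and 1056 in WT against 3249 and 5348 in Smad4-KO. The genotypes did not overlap, but the lower Smad4-KO array stood only 1.76 times above the higher WT array, and the WT arrays differed by 1.75-fold from each other. The difference of 1.58 ± 0.44 (95% interval 0.49 to 2.67) did not pass (adjusted p = 0.116 in limma), and it passed under none of 13 alternatives (adjusted p from 0.0760 to 0.454). Within pairs it ranged from 0.81 to 2.34.

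Ncf1 encodes p47phox, the organizer whose phosphorylation starts assembly. Its brightest probe set, 1456772_at, read 234 and 201 in WT against 1685 and 2879 in Smad4-KO. The WT arrays lay close together and both Smad4-KO arrays far above them. The rise was 10.1-fold (3.34 ± 0.38, 95% interval 2.40 to 4.29, adjusted p = 0.0157 in limma), with pair differences from 2.84 to 3.84. Probe set 1451767_at read 28.1 and 27.1 in WT against 399 and 259 in Smad4-KO, which was at least 5.02-fold higher with the floor of 64. Probe set 1425609_at stayed dim, at 34.1 and 50.5 in WT against 129 and 70.1 in Smad4-KO, and it did not pass in the limma fit of every probe set (adjusted p = 0.354). The annotation gives these dimmer probe sets the same source sequence, so they disagree in size over 1 transcript record while they share the direction.

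Ncf4 encodes p40phox, a cytosolic subunit that binds phosphoinositides of the phagosome. Its single probe set, 1418465_at, read 115 on both WT arrays and 838 and 1296 in Smad4-KO. No WT array came near a Smad4-KO array: the closest pair was 7.26-fold apart. The rise was 9.04-fold (3.18 ± 0.35, 95% interval 2.31 to 4.04, adjusted p = 0.0151 in limma), and the pair differences took the values 2.86 and 3.49, set by which Smad4-KO array was used.

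Rac2 encodes the Rac GTPase of blood cells that switches the phagocyte enzyme on. Its brightest probe set, 1417620_at, read 176 and 141 in WT against 972 and 723 in Smad4-KO. The rise was 5.31-fold (2.41 ± 0.33, 95% interval 1.58 to 3.24, adjusted p = 0.0207 in limma), with pair differences from 2.04 to 2.78. Here Smad4-KO replicate 1 was the higher array, whereas for the brightest probe sets of Cybb, Cyba, Ncf1 and Ncf4 it was Smad4-KO replicate 2. The order depends on the probe set. Replicate 1 was also the higher for Cybb 1422978_at and Ncf1 1451767_at and 1425609_at, but not for Cybb 1436779_at. The second probe set, 1440208_at, read 43.3 and 60.3 in WT against 119 and 64.3 in Smad4-KO. It was dim throughout, the nearest arrays stood 1.07-fold apart, and its difference of 0.78 ± 0.45 did not pass (adjusted p = 0.590 in the limma fit of every probe set). With the mean of both probe sets Rac2 had a difference of 1.59 and did not pass (adjusted p = 0.0919; 0.00565 to 0.125 under the 13 alternatives).

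Nox4 is the member typical of the vessel wall. Its brightest probe set, 1451827_a_at, read 3477 and 6308 in WT against 1522 and 934 in Smad4-KO. Low signal was seen on both Smad4-KO arrays, and the higher of them lay 2.28-fold under the lower WT array. The difference was -1.97 ± 0.44 (95% interval -3.08 to -0.86, a 3.93-fold lower signal) and did not pass (adjusted p = 0.0681 in limma). It did pass with the replicate block (adjusted p = 0.0304), median centring (0.0472), a filter at the 50th percentile (0.0388) and eBayes with trend and robust (0.0392); 0.0304 to 0.297 under the 13 alternatives. Only 168 of the 13645 genes tested had a lower difference. The pair differences lay between -2.76 and -1.19. The second probe set, 1419161_a_at, read 670 and 1800 in WT against 615 and 256 in Smad4-KO. Its arrays all but met, with the nearest 1.09-fold apart, and its difference of -1.47 ± 0.69 did not pass (adjusted p = 0.457 in the fit of every probe set).

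**Figure D2:**
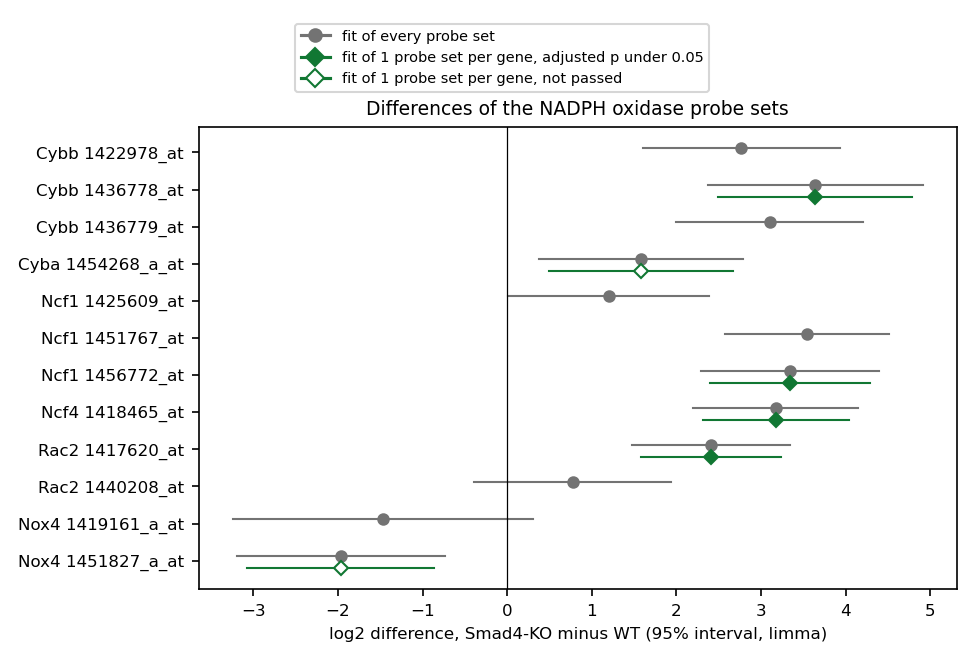
Log2 difference (Smad4-KO minus WT) and 95% interval from limma for each probe set, in the fit of every probe set (grey circles) and, for the brightest of each gene, in the fit of 1 probe set per gene (green diamonds, filled where the adjusted p was under 0.05). The filled diamonds are Cybb, Ncf1, Ncf4 and Rac2, and the open ones are Cyba and Nox4.

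Which members passed depended on the test, the filter and the WT arrays, while each kept its direction under every alternative run. When every probe set was tested by itself, 1 of the 12 members passed, Ncf1 1451767_at (adjusted p = 0.0473), beside 0.702% of all 26209 probe sets that were called higher. That probe set read 28.1 and 27.1 in WT, under the filter at 38.2, and entered the test only through its Smad4-KO signals. The brightest probe sets of Ncf4, Ncf1, Cybb and Rac2 had adjusted p of 0.0506, 0.0520, 0.0583 and 0.0663 in this limma fit. At the gene level, 0 of the 6 members passed in limma without WT replicate 1 (6 at an unadjusted p under 0.05) or without WT replicate 2 (5 at an unadjusted p under 0.05). The adjusted p of Cybb, Ncf1, Ncf4 and Rac2 were then 0.0621, 0.0564, 0.0588 and 0.0758 without WT replicate 1, and 0.0974, 0.0844, 0.0781 and 0.125 without WT replicate 2. When either Smad4-KO array was left out, all 4 genes still passed. All 4 also missed the threshold without the filter on dim genes (adjusted p from 0.0738 to 0.0847 in limma) and in the crossed block, which pairs arrays of like Dap ratio (0.0557 to 0.0661). The differences with 1 array left out ranged from 3.07 to 4.20 for Cybb, 2.96 to 3.73 for Ncf1, 2.86 to 3.49 for Ncf4 and 2.20 to 2.62 for Rac2.

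Other genes of the enzyme family and its regulators were tested as a list. Of a list of 20, 15 could be tested, of which 1 rose, 0 fell and 14 did not pass, with a median difference of 0.38 beside -0.01 over all genes tested. This count of 1 is near the share of 4.92% of all genes tested that rose. Of the 15 differences, 11 lay above 0 and 4 below. Genes that did not pass had differences up to 1.68. Hvcn1, the proton channel that balances the charge carried out by the oxidase, read 126 and 130 in WT against 349 and 361 in Smad4-KO. It rose 2.77-fold (1.47 ± 0.29, adjusted p = 0.0481 in limma), a call that was lost when any 1 of the 4 arrays was left out (adjusted p up to 0.236) and kept under 2 of 12 alternatives.

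Rac1, the Rac GTPase of most tissues, read 7745 and 9282 in WT against 11818 and 7110 in Smad4-KO. Its genotypes overlapped and its difference was 0.11 ± 0.37 (95% interval -0.82 to 1.04, adjusted p = 0.932 in limma), with the sign turned by median centring (-0.10). Noxo1, the organizer that serves Nox1, read 230 and 248 in WT against 32.7 and 137 in Smad4-KO. Its difference of -1.84 ± 0.69 did not pass (adjusted p = 0.228), and with signals under 64 raised to 64 the ratio was at least 2.56-fold. It passed without Smad4-KO replicate 2 (-2.87, adjusted p = 0.0220; 0.0220 to 0.535 under the 12 alternatives). Cybc1, a chaperone of the gp91phox and p22phox pair, read 604 and 781 in WT against 1134 and 1200 in Smad4-KO and did not pass (0.76 ± 0.31, adjusted p = 0.269). It was named after its values were seen. Noxa1, the activator that serves Nox1, was not analysed here.

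Genes that act on superoxide and peroxides were tested as a further list. Of 29 genes listed, 26 could be tested: 1 rose, 1 fell and 24 did not pass, beside 4.92% and 1.39% of all genes tested that rose and fell, with a median difference of 0.12, 14 differences above 0 and 12 below. Hmox1, the inducible haem oxygenase, read 121 and 149 in WT against 3695 and 1512 in Smad4-KO and rose 17.6-fold (4.14 ± 0.49, adjusted p = 0.0170 in limma), a call lost without either WT array (adjusted p = 0.0643 and 0.0758; 0.000760 to 0.0799 under its alternatives). Sod3, the extracellular superoxide dismutase that vascular smooth muscle secretes, read 2520 and 3369 in WT against 967 and 624 in Smad4-KO. It fell 3.75-fold (-1.91 ± 0.37, adjusted p = 0.0465), and this call was lost without WT replicate 1 (adjusted p = 0.124), WT replicate 2 (0.237) or Smad4-KO replicate 2 (0.101) and with the mean of its probe sets (0.194), over a range of 0.0237 to 0.237 under its alternatives. Intracellular Sod1 (-0.06 ± 0.47), mitochondrial Sod2 (-0.24 ± 0.61) and catalase (Cat, 0.13 ± 0.53), named after their values were seen, had arrays that overlapped between genotypes.

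**Figure D3:**
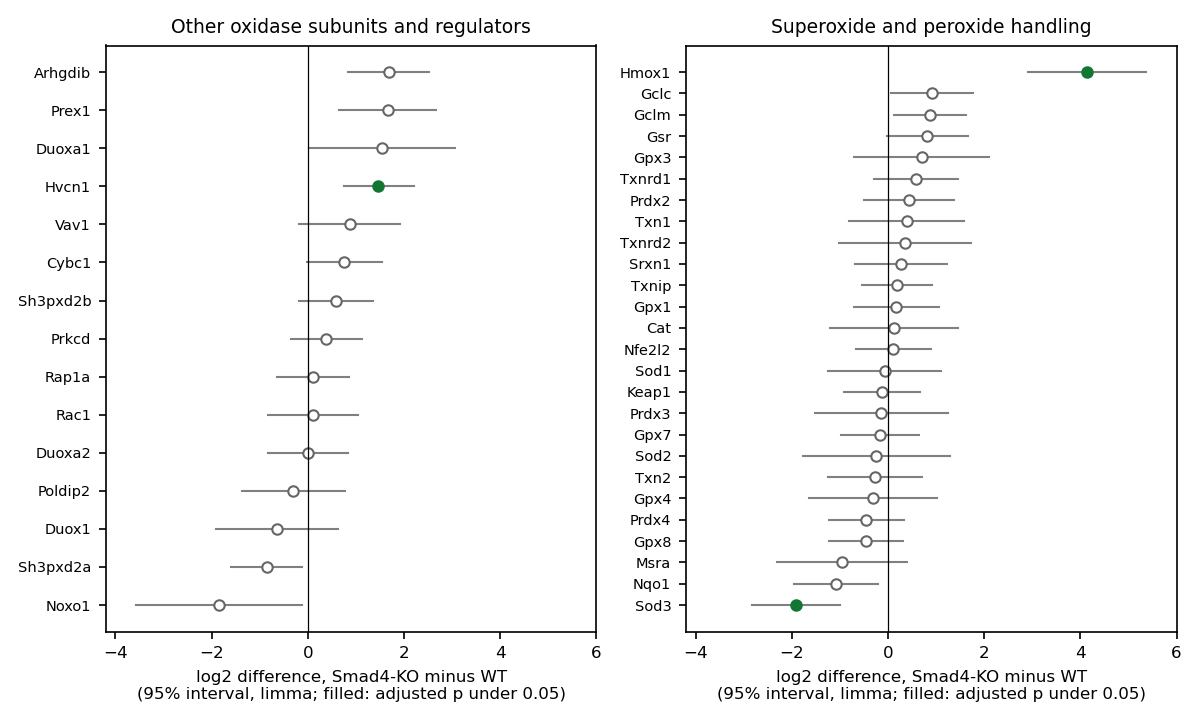
Log2 difference (Smad4-KO minus WT) with its 95% interval for the 15 other oxidase subunits and regulators tested (left) and the 26 genes of superoxide and peroxide handling tested (right), ordered by difference, filled where the adjusted p was under 0.05. Hvcn1, Hmox1 and Sod3 are filled.

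Markers of several cell types were compared between the same arrays. Their counts stand beside 4.92% of all genes tested that rose and 1.39% that fell. No marker passed without the filter on dim genes or with the crossed block, where no gene did. Of 12 macrophage markers, 7 rose and 0 fell (median 2.34), and their summed signal was 12863 to 16491 in WT and 55100 to 71832 in Smad4-KO, with none of the markers at 0. Aif1 (4.34 ± 0.76), Fcgr1 (3.79 ± 0.65), Ptprc (3.66 ± 0.31) and Cd68 (3.45 ± 0.33) had the largest rises, though Ptprc is carried by leukocytes of every type. The other 5 did not pass, and of these Cd163 (-0.56 ± 0.39) and Mertk (-0.36 ± 0.44) read lower, with overlapping arrays. Of 8 neutrophil markers tested, 6 rose and 0 fell (median 3.26), among them S100a9 (4.70 ± 0.68), Csf3r (4.46 ± 0.36), S100a8 (4.36 ± 0.71) and Ngp (2.67 ± 0.44). The summed neutrophil signal over 10 markers was 635 to 1847 in WT and 15647 to 19575 in Smad4-KO. Most of the Smad4-KO sums came from S100a8 (6061 and 10042) and S100a9 (5985 and 6534). Elane and Cxcr2 lay under the filter. Of 5 T and B cell markers tested, 1 rose, Cd3d (2.33 ± 0.37), with summed signals over 8 markers of 411 to 732 in WT and 1408 to 2854 in Smad4-KO. Ms4a1 made up much of the higher sum, at 1074 on Smad4-KO replicate 1 against 113 on Smad4-KO replicate 2, and its genotypes overlapped. Of 8 smooth muscle markers, 4 fell and 0 rose (median -2.08): Synpo2 (-2.96 ± 0.40), Cnn1 (-2.58 ± 0.29), Lmod1 (-2.55 ± 0.35) and Smtn (-2.34 ± 0.29). Their summed signal was 129965 to 157829 in WT and 59783 to 67654 in Smad4-KO, so the defining transcripts of the aortic media were present in both genotypes. All 10 nerve cell markers rose (median 4.73), led by Snap25 (5.95 ± 0.45), Tubb3 (5.14 ± 0.41), Th (5.03 ± 0.30) and Nefm (4.95 ± 0.31), with summed signals of 1856 to 2090 in WT and 31546 to 41305 in Smad4-KO. None of 8 endothelial markers (lowest p Kdr, 1.40 ± 0.38, and Nos3, -0.80 ± 0.35) or 7 fibroblast markers (Pi16, -0.87 ± 0.40, and Col1a2, -0.16 ± 0.34) passed in limma. The part of these cell types in the differences of the oxidase genes was not tested. In whole vessels, fewer cells of a type and less RNA per cell cannot be told apart.

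The size of the members' differences was set beside that of the marker lists within each array, as a description with no test. The mean log2 signal of the 12 macrophage markers differed by 2.25 between the genotypes, and that of the 8 smooth muscle markers by -1.91. Relative to the macrophage mean, Cybb still read higher in Smad4-KO by 1.38, Ncf1 by 1.09 and Ncf4 by 0.92, with no overlap between genotypes for these genes. The gap of Rac2 to that mean changed by 0.16 between genotypes with overlapping arrays, and that of Cyba by -0.68 with no overlap. The smooth muscle mean pools differences from -2.96 (Synpo2) to -0.57 (Acta2). Relative to it, Nox4 read -1.45 and -0.66 in WT against -0.74 and -1.50 in Smad4-KO. This is a difference of -0.06 between genotypes, with overlapping arrays. The Nox4 difference was thus near the smooth muscle markers' mean difference, while those of Cybb, Ncf1 and Ncf4 were above that of the macrophage mean. That mean pools markers with differences from -0.56 (Cd163) to 4.34 (Aif1), and Aif1, Fcgr1 and Ptprc each differed by more than Cybb (3.64). It includes Ptprc, which is not particular to macrophages. The median difference of the neutrophil markers, 3.26, lay between those of Ncf4 (3.18) and Ncf1 (3.34). These ratios show unequal change only, and they depend on which markers enter the mean.

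**Figure D4:**
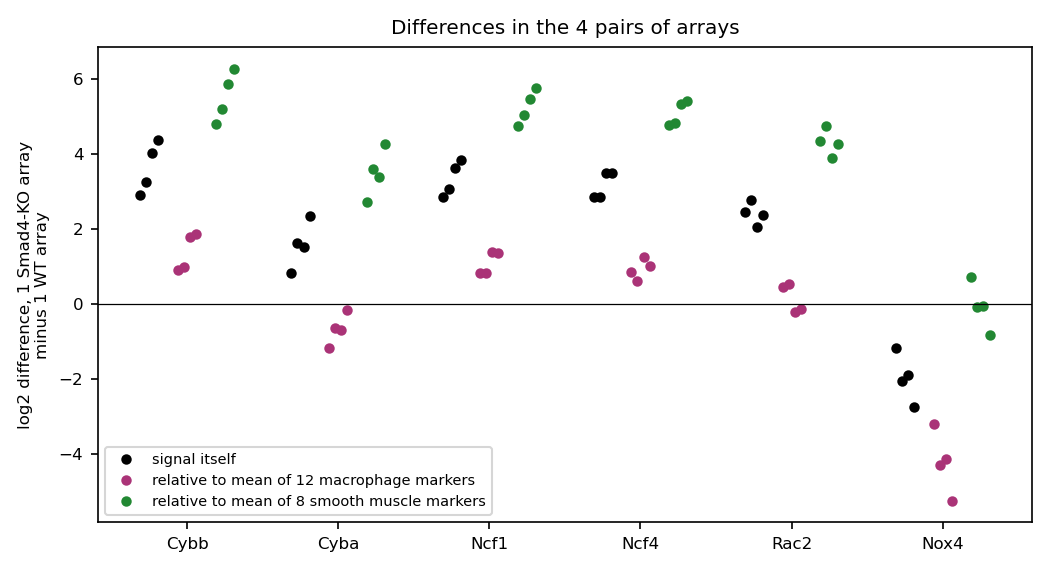
Log2 differences of the 6 member genes in the 4 pairs of 1 Smad4-KO array and 1 WT array, for the signal itself (black), relative to the mean of the 12 macrophage markers (purple) and relative to the mean of the 8 smooth muscle markers (green). Nox4 lies around 0 relative to the smooth muscle markers, and Rac2 lies around 0 relative to the macrophage markers.

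The genes whose profile over the 4 arrays was most like each member were found by the root mean square distance between log2 values centred on each gene's mean, over the 13644 other genes tested. For Cybb these were Oasl2 (0.05) and Clec4a3 (0.06), and for Ncf1 Ifitm1 (0.04) and Fcgr2b (0.05). For Ncf4 they were Itgax (0.06) and Hcls1 (0.09), and for Rac2 C1qtnf3 (0.05) and Plk2 (0.06). All 8 of these genes rose in the same test, with differences from 2.31 for Plk2 to 3.75 for Clec4a3. For Cyba they were Hmmr (0.05; adjusted p = 0.121) and Cdca8 (0.06; adjusted p = 0.127), and for Nox4 Lamc3 (0.08; adjusted p = 0.0914) and B3galnt2 (0.09; adjusted p = 0.0662), none of which passed. The distances are in log2 units over 4 arrays, a number too small to set one near gene apart from another. The near genes were picked on these same arrays, so their differences and calls follow from the choice and are no separate result.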

How the data were processed

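The authors' deposited table holds 1 column per array, with each probe set's intensity before any log. Affymetrix Expression Console and RMA are named, per the submitters' processing notes, with no version. RMA would give log values of equal distribution; these are linear, and their mean after trimming 2% at each end is 500 on every array, as MAS5 scaling gives. Array medians were 111.4 to 137.4. No detection call or build is given in the sources used here. Precision is limited by the number of arrays.

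Of 45101 probe sets, 34945 had exactly 1 symbol in the platform annotation. Those with several (932) or none (9160) and 64 controls were left out. Symbols were checked against RefSeq by gene identifier (18032 of 18193 matched, 0 updated). Values were taken to log2, the brightest probe set on average stood for its gene, and genes under the 25th percentile (a signal of 50.0) were left out, which left 13645. All 12 member probe sets also passed the same filter in a fit of 26209 single probe sets.

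Genotypes were compared with limma 3.58.1 (R 4.3.3; lmFit, eBayes, two-sided, Benjamini-Hochberg, threshold 0.05), tested on simulated data. Replicates are labelled biological. Same-numbered arrays were not paired (correlation of deviations -0.010). Members and lists were chosen with earlier results of these data known. Named genes are the members, Smad4, Rac1, Noxo1, Noxa1 and a gene not reported here, up to 4 genes a list that passed, by size of difference (where none passed, the 2 of lowest p), and the 2 most like each member; Cybc1, Sod1, Sod2, Cat, Cd163 and Mertk were named after their values were seen.

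Alternatives were a replicate block, the crossed block, quantile normalization, median centring, no filter, a 50th percentile filter, signals under 64 raised to 64, eBayes with trend and robust, the mean of probe sets, an adjusted p of 0.10 and leaving out each array. Leaving out an array assumes that the lone array varies like the other pair. Tables and figures used Python 3.11.15, pandas 2.3.3 and matplotlib 3.10.9.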

Additional observations from a re-analysis of the deposited data

How the results depend on the processing

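In the 13645 genes tested, 861 passed in limma (672 higher, 189 lower), 1321 with the replicate block, 518 with the mean of probe sets and 1403 at an adjusted p of 0.10. The count was 0 without a filter (2788 at an unadjusted p under 0.05) and 0 with the crossed block, which pairs the arrays that match on labelling (2658 at an unadjusted p under 0.05), and it ranged from 0 to 808 with 1 array left out. Median centring moved the median of all genes to -0.22 and the split to 453 higher and 225 lower (66.8% higher, against 78.0%). Of the 6 member genes, 4 passed, but 0 without a filter and 0 with the crossed block (6 at an unadjusted p under 0.05 each time), and 0 to 4 with 1 array left out. Of the 12 member probe sets, 1 passed, and 0 with the replicate block, quantile normalization, median centring, no filter or the crossed block (9 to 11 at an unadjusted p under 0.05). This number was 5 with the 50th percentile filter, where 8 were tested, 6 with the floor of 64, 6 with trend and robust and 7 at an adjusted p of 0.10, and 0 with any array left out. Of the other oxidase subunits and regulators, 1 passed, against 0 with quantile normalization, median centring, no filter, the crossed block or the mean of probe sets, 2 with the floor or with trend and robust, 3 at an adjusted p of 0.10 and 0 to 1 with 1 array left out. Of the superoxide and peroxide genes 2 passed, 0 without a filter or with the crossed block, 1 with the mean of probe sets, and 0 to 2 with 1 array left out. All 6 members and all 12 probe sets kept their direction under every alternative run. Rac1 turned with median centring (-0.10) and without WT replicate 1 (-0.02) or Smad4-KO replicate 1 (-0.25), in a range of -0.25 to 0.48 with 1 array left out. Col1a2 turned when its probe sets were averaged (0.18) and without WT replicate 2 (0.00) or Smad4-KO replicate 1 (0.07), in a range of -0.39 to 0.07. The cause of these changes was not tested. The replicate block ended the calls of Hvcn1 (adjusted p = 0.0568) and of Ncf1 1451767_at (0.0546), brought Nox4, Lamc3 and B3galnt2 past the threshold (0.0304, 0.0438 and 0.0354), and changed no other call among the members, their probe sets and the genes named by rule. Among the other oxidase subunits and regulators, 1 gene other than Hvcn1 passed with it (adjusted p = 0.0361).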
